A study of Homo sapiens with 38 samples.

Results

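Messenger RNA of 10 inflammatory genes was followed in RKO, a cell line from a human colorectal cancer, treated with the LSD1 inhibitor NCD38 or with 1 of its polyamide conjugates. The genes were SAA1, S100A9, LCN2, IL8, CXCL1, CASP1, IL13RA2, NFKBIA, TNFAIP3 and BIRC3, and they were found by symbol among 25504 genes of the expression table. IL8 is the older symbol of CXCL8. SAA1, S100A9, CASP1 and IL13RA2 were picked for their rise with the conjugate P4_NCD38 on day 30, so their values in that comparison describe the choice and test nothing. The other 6 were not named as picked on that rise, though they too were chosen with earlier results of these data known.

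The study asked whether polyamides that bind short DNA sequences could direct an LSD1 inhibitor to chosen regions. RKO cells received DMSO, NCD38, P4_NCD38 or PIPP_NCD38, and RNA was collected on day 30 or day 4, which gave 8 conditions with 1 library each. P4_NCD38 carries 4 pyrrole units (Py-Py-Py-Py) joined to NCD38 and recognises 6 A or T bases in a row, whereas PIPP_NCD38 carries Py-Im-Py-Py and recognises CG flanked by A or T bases. Cells received 2 µM inhibitor in 0.1% DMSO with medium renewed every 5 days, and the DMSO libraries had the vehicle alone. The sample labels give 2 µM for day 4 as well, whereas the methods print 2 mM. All conditions shared 1 cell line. With 1 library per condition there was no spread between replicates, so no p-value is given for an inhibitor against DMSO on 1 day.

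NF-κB is a transcription factor that is held in the cytoplasm by inhibitors such as IκBα. Once it is released it switches on chemokines, acute-phase proteins and antimicrobial proteins, and also its own inhibitors, which end the response. In intestinal epithelium this programme recruits neutrophils and limits bacteria. Of the 10 genes, NFKBIA (IκBα), TNFAIP3 (the ubiquitin-editing enzyme A20) and BIRC3 (the ubiquitin ligase cIAP2) are feedback regulators, IL8 and CXCL1 are neutrophil chemokines, and SAA1, S100A9 and LCN2 encode acute-phase or antimicrobial proteins. CASP1 encodes the protease that matures interleukin-1β in inflammasomes. IL13RA2 encodes a receptor that binds interleukin-13 and is usually described as a decoy.

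Promoter sequences from RefSeq (GRCh38.p14), 250 bases before the start of each gene, were found for 7 of the 10 genes, and not for SAA1, CASP1 and IL13RA2. The NF-κB motif searched for, GGG followed by any 3 bases and TTCC on either strand, was present in 5 of them, whereas 5.67% of all 35116 promoters in the table contained it. The stretches around these matches are shown because they are shared by genes whose levels differed widely. Capitals mark the match, overlapping matches being joined.
CXCL1 (chr4:73869289-73869349, plus strand): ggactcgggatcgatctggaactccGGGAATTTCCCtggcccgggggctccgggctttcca
BIRC3 (chr11:102317260-102317319, plus strand): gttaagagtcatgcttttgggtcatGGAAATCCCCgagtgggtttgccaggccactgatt
TNFAIP3 (chr6:137867167-137867238, plus strand): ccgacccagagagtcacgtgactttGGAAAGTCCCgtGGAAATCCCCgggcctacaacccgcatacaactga
NFKBIA (chr14:35404796-35404855, minus strand): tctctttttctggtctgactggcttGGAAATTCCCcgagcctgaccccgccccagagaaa
LCN2 (chr9:128149253-128149312, plus strand): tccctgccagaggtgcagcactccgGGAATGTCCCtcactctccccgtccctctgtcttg

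The promoters of S100A9 and IL8 held no match to this pattern in the 250 bases searched. The pattern is strict: the IL8 promoter holds ggaatttcct, outside the part printed below, which differs from it in the last base only. A missing match is therefore no sign that an NF-κB site is absent. Runs of at least 6 A or T bases, the sequence recognised by P4_NCD38, were present in 6 of the 7 promoters, beside 58.7% of all promoters, so the share in these genes has little contrast with the background. The promoter of S100A9, a gene picked for its rise with P4_NCD38, and the A/T-rich part of the IL8 promoter are shown with these runs in capitals. A match describes the sequence and is no measurement of binding.
S100A9 (chr1:153357604-153357853, plus strand): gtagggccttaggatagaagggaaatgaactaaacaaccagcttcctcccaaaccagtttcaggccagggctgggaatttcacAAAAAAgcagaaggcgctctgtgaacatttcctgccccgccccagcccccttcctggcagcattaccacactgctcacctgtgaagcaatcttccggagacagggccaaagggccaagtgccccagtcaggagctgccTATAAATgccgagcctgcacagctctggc
IL8 (chr4:73740319-73740408, plus strand): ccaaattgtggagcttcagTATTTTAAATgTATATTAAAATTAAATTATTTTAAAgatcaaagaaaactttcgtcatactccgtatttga

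Levels are FPKM, the number of fragments scaled to exon length and to the mapped total, which can be compared between genes because they are divided by length. The FPKM of many low genes were whole multiples of the value of 1 fragment (59.9% of 3132 genes of at most 30 fragments), which gave an estimate of 12200000 to 22400000 fragments per library and of the fragments behind each level. The estimate was lowest for P4_NCD38 on day 30. The 95% intervals of fragment numbers are exact Poisson intervals and cover counting error only, and a count of 0 allows up to 3.69 fragments. Ratios are log2 of FPKM plus 1, which makes the ratio of a low gene smaller. A gene was counted when this log2 ratio reached 1, called 2-fold below. Epithelial markers were above 0 for 4 to 6 of 7 genes in each library, with KRT18 between 76.2 and 121 FPKM, while VIL1 was listed at 0 throughout. KRT8 lay between 6.58 and 19.0 FPKM, CDX2 between 7.48 and 11.6 and EPCAM between 0.0922 and 6.53. CDH1 and KRT19 reached no more than 0.0642 and 0.467 FPKM, so a marker above 0 can rest on few fragments. Leukocyte markers summed to 0 to 0.0917 FPKM per library, and 0 of 7 were above 0 with P4_NCD38 on day 30. KDM1A, which encodes LSD1, was between 38.0 and 72.1 FPKM. In bulk RNA, fewer cells that express a gene and less RNA per cell cannot be told apart.

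**Figure D1:**
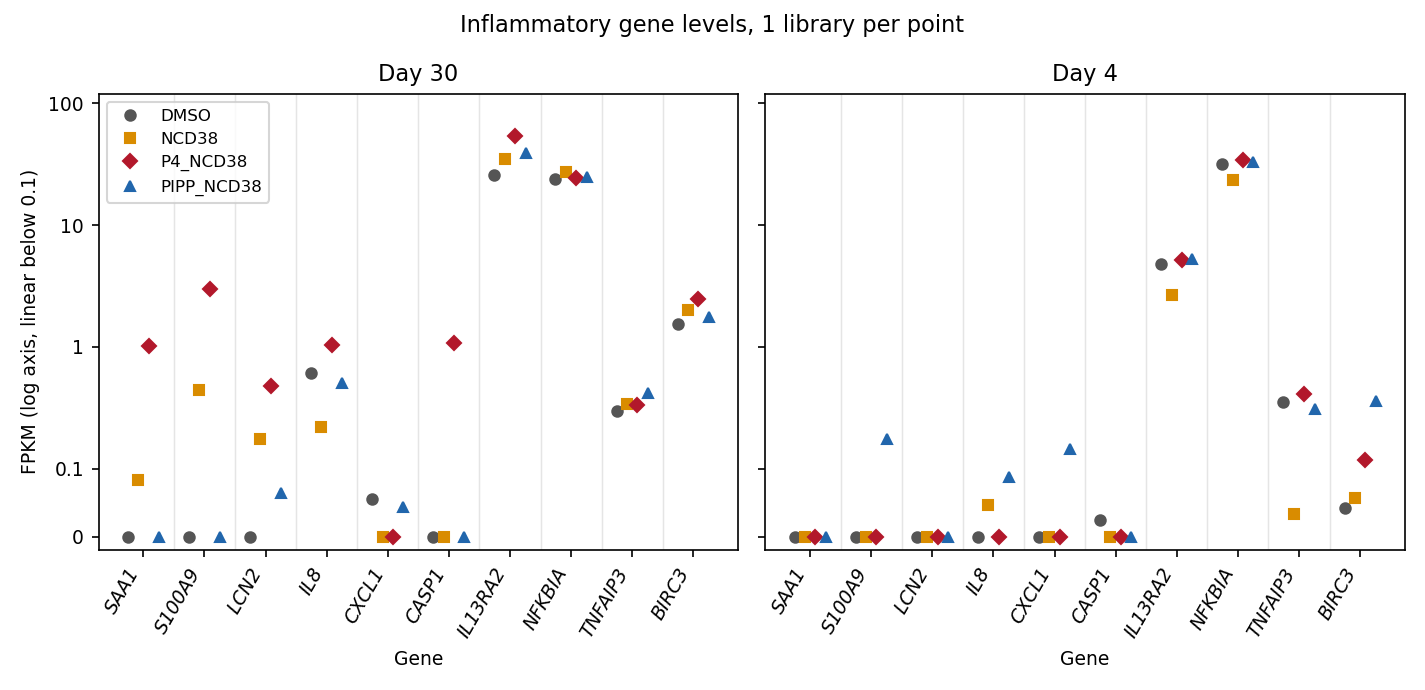
FPKM of the 10 genes on day 30 (left) and day 4 (right), with 1 point per library on an axis that is logarithmic above 0.1 and linear below. SAA1, S100A9 and CASP1 reached 1 FPKM only with P4_NCD38 on day 30, while IL13RA2 and NFKBIA were well above 1 in all 8 libraries.

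With P4_NCD38 on day 30, 4 of the 10 genes were at least 2-fold higher than DMSO and 0 were lower, and these were the 4 that had been picked for it. Of all 17976 genes above 0 in at least 1 library, 0.395% were 2-fold higher and 0.306% lower. Since the choice fixed the count, nothing was read from it. The median log2 ratio over the 6 genes that were not picked was 0.19, beside 0.02 over all 17976. This median was not corrected for the trend with GC content given below. With that trend subtracted, the 6 ratios were -0.20 (CXCL1), -0.04 (TNFAIP3), 0.00 (NFKBIA), 0.11 (IL8), 0.22 (BIRC3) and 0.56 (LCN2). Of the 10 genes, 7 had their highest day-30 level with P4_NCD38, 4 of them by the choice, whereas 32.5% of 17199 genes above 0 on day 30 had theirs in that library.

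SAA1 encodes serum amyloid A, an acute-phase protein secreted by liver and by inflamed epithelium. It lies at chromosome 11, 18287811 to 18291514, plus strand (GRCh37), in 4 exons. Its level on day 30 was 0 FPKM with DMSO, 0.0836 with NCD38, 1.01 with P4_NCD38 and 0 with PIPP_NCD38. These values came from 0, 1, 9 (interval 4.12 to 17.1) and 0 fragments. On day 4 it was listed at 0 in all 4 libraries. SAA1 was picked on the P4_NCD38 library of day 30, so its interval there tests nothing. That interval also overlapped the one of the 1 fragment with NCD38 (0.0253 to 5.57). SAA2, a near-identical neighbour 17.6 kb away, had 1 fragment with NCD38 and 1 with P4_NCD38 on day 30, and reads shared between both copies could have been assigned to either.

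S100A9 encodes a calcium-binding subunit of calprotectin, an abundant neutrophil protein that inflamed epithelium also makes. It lies at chromosome 1, 153330330 to 153333499, plus strand, in 3 exons. On day 30 its level was 0 with DMSO, 0.440 with NCD38, 2.96 with P4_NCD38 and 0 with PIPP_NCD38. The fragments behind these were 0, 3 (0.619 to 8.77), 15 (8.40 to 24.7) and 0. On day 4 it was listed at 0 except with PIPP_NCD38, where 1 fragment gave 0.176 FPKM. S100A9 had the highest log2 ratio of the 10 genes, 1.99, at rank 32 of 17976. S100A8, which encodes the other calprotectin subunit and lies 29.0 kb away, had 1 fragment in P4_NCD38 on day 30 and was listed at 0 in the other 7 libraries.

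LCN2 encodes lipocalin 2, which binds bacterial siderophores, and it was not picked for its level. It lies at chromosome 9, 130911732 to 130915732, plus strand, in 7 exons. On day 30 LCN2 was at 0 FPKM with DMSO, 0.177 with NCD38, 0.478 with P4_NCD38 and 0.0650 with PIPP_NCD38, from 0, 2, 4 and 1 fragments. All 4 libraries of day 4 were listed at 0. The interval of the 4 fragments, 1.09 to 10.2, overlapped those of the other libraries, so a difference for LCN2 was not detectable at this depth.

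IL8 and CXCL1 encode chemokines that attract neutrophils through shared receptors, and they lie 126 kb apart on chromosome 4. IL8 is at 74606286 to 74609433 and CXCL1 at 74735110 to 74737025, both on the plus strand. IL8 on day 30 was 0.607 FPKM with DMSO, 0.220 with NCD38, 1.03 with P4_NCD38 and 0.509 with PIPP_NCD38, from 18, 6, 21 and 19 fragments. P4_NCD38 and DMSO differed by a log2 ratio of 0.34, and without the added 1 by 0.77 with a counting half-width of 0.91, which includes 0. NCD38 was lower than DMSO by 1.47 on that scale, with a half-width of 1.33. The highest IL8 level was therefore within counting error of DMSO, and only NCD38 fell outside it. On day 4 IL8 had 0, 1, 0 and 2 fragments in the same order of treatments.

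CXCL1 stayed close to 0 in every library. It had 1 fragment with DMSO and 1 with PIPP_NCD38 on day 30, 2 with PIPP_NCD38 on day 4, and was listed at 0 elsewhere, P4_NCD38 included. Its highest level was 0.145 FPKM, and it was the 1 gene of the 10 with a negative log2 ratio for P4_NCD38 on day 30, at -0.08. The NF-κB motif shown above is present in CXCL1, as it is in NFKBIA, whose levels were far higher.

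CASP1 lies at chromosome 11, 104896235 to 104905871, minus strand, in 9 exons. On day 30 it was listed at 0 FPKM with DMSO, NCD38 and PIPP_NCD38 and at 1.07 with P4_NCD38, from an estimated 26.2 fragments (17.1 to 38.3). On day 4 it was at 0.0243 with DMSO and at 0 in the other 3. CASP1 was thus read in 2 of 8 libraries. Its fragment number was not whole, so the transcript length behind the estimate is uncertain. The neighbouring copies CARD17 and CARD18 were listed at 0 in all 8 libraries and CARD16 was at 0.0540 FPKM with DMSO on day 4 and 0 elsewhere. CASP4, a caspase of the same cluster 56.9 kb away, did not follow it, with 197, 201, 216 and 217 FPKM on day 30 for DMSO, NCD38, P4_NCD38 and PIPP_NCD38.

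IL13RA2 was the one picked gene with a substantial level in all libraries. It lies at chromosome X, 114238545 to 114252179, minus strand, in 10 exons. On day 30 it was 25.95 FPKM with DMSO, 35.1 with NCD38, 53.7 with P4_NCD38 and 38.8 with PIPP_NCD38, from 620 to 1166 fragments. P4_NCD38 was 2.07 times DMSO, a log2 ratio of 1.02 on the FPKM plus 1 scale. The other inhibitors were in the same direction at 0.42 for NCD38 and 0.56 for PIPP_NCD38, each outside its counting half-width of 0.15 and 0.14, so all 3 inhibitor libraries stood above the 1 DMSO library that they share. On day 4 the order was another: 4.80 with DMSO, 2.69 with NCD38, 5.15 with P4_NCD38 and 5.22 with PIPP_NCD38. There P4_NCD38 and PIPP_NCD38 differed from DMSO by less than counting error (log2 ratios of 0.08 and 0.10, half-widths of 0.41 and 0.40), and NCD38 was lower, at -0.65. With the median of genes of like GC content subtracted, these day-4 ratios were -0.27, -0.72 and -0.32, so the order on day 4 depended on that correction.

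Log2 ratios with P4_NCD38 on day 30 followed the GC content of transcripts across 9897 genes (Spearman correlation -0.53), and IL13RA2 is GC-poor at 38.6%, as is CASP1 at 41.1%. With the median of genes of like GC content subtracted, the log2 ratio was 0.80 for IL13RA2 and 0.86 for CASP1, both under 2-fold, while SAA1 kept 1.01 and S100A9 1.98. Scaling the median of expressed genes (mean FPKM of 1 or more) to 0 gave 0.95, 0.99 and 0.96 for SAA1, CASP1 and IL13RA2 and left S100A9 alone past 2-fold. For SAA1 and CASP1 the size of the ratio is set by the added 1, since DMSO was listed at 0.

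Other genes of IL-13 signalling were also read. IL13RA1, the signalling receptor chain, was 6.16, 6.82, 6.25 and 6.98 FPKM on day 30 with DMSO, NCD38, P4_NCD38 and PIPP_NCD38. IL4 was listed at 0 throughout. Of 8 genes of the IL-13 and IL-4 receptor list, 0 were 2-fold apart from DMSO with P4_NCD38 on either day. Over all 17976 genes, 0.395% were higher and 0.306% lower on day 30, and 0.718% and 0.534% on day 4. With such shares, 0 of 8 is near the background.

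NFKBIA lies at chromosome 14, 35870719 to 35873955, minus strand, and had the highest mean level of the 10 genes. On day 30 it was 23.9 FPKM with DMSO, 27.4 with NCD38, 24.2 with P4_NCD38 and 24.7 with PIPP_NCD38. On day 4 it was 31.9, 23.5, 33.9 and 33.0 in that order. With P4_NCD38 the log2 ratio was 0.02 on day 30 (half-width 0.17) and 0.08 on day 4 (0.15), so both intervals hold 0 and leave out a 2-fold change from counting error alone. The NCD38 libraries lay outside counting error on both days, at 0.19 with a half-width of 0.15 on day 30 and at -0.43 with a half-width of 0.16 on day 4. With the median of expressed genes scaled to 0 these were 0.13 and -0.22.

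TNFAIP3, at chromosome 6, 138188396 to 138204449, plus strand, was low in every library. On day 30 it was 0.299, 0.338, 0.333 and 0.419 FPKM with DMSO, NCD38, P4_NCD38 and PIPP_NCD38, and on day 4 it was 0.351, 0.0330, 0.412 and 0.310. It had 19 to 44 fragments in 7 libraries and 2 (0.242 to 7.22) with NCD38 on day 4. That library had 0.0941 times the DMSO level, a log2 ratio of -3.41 without the added 1 and a counting half-width of 2.07. The log2 ratio across genes rose with GC content in that comparison (Spearman correlation 0.60), and 2.8% of 17976 genes were at least 2-fold lower, more than with the conjugates. On the FPKM plus 1 scale the TNFAIP3 ratio was -0.39, and it turned to 0.09 with the GC trend subtracted.

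BIRC3, at chromosome 11, 102188215 to 102210134, plus strand, was 1.54 FPKM with DMSO, 2.03 with NCD38, 2.46 with P4_NCD38 and 1.76 with PIPP_NCD38 on day 30. On day 4 it was 0.0430, 0.0567, 0.118 and 0.359, from 5 to 34 fragments. P4_NCD38 was the highest library on day 30, with a log2 ratio to DMSO of 0.68 without the added 1 and a half-width of 0.28. PIPP_NCD38 was the highest on day 4, with 34 fragments (23.5 to 47.5) beside 5 with DMSO (1.65 to 11.7). That comparison had the steepest GC trend of the 6 with DMSO (Spearman correlation -0.71), and the BIRC3 ratio of 0.38 on the FPKM plus 1 scale turned to -0.29 with the trend subtracted. BIRC3 is also GC-poor, at 35.8%, and the ratio with P4_NCD38 on day 30 fell from 0.45 to 0.22 on the FPKM plus 1 scale when the GC trend was subtracted.

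In the other 5 comparisons with DMSO, 0 of the 10 genes were 2-fold apart in either direction. The share of all 17976 genes that was 2-fold higher was 0.629% with NCD38 and 0.545% with PIPP_NCD38 on day 30, and 0.556%, 0.718% and 6.29% with NCD38, P4_NCD38 and PIPP_NCD38 on day 4. The share that was lower was 0.412% and 0.234% on day 30 and 2.8%, 0.534% and 0.562% on day 4. With shares of this size, 0 of 10 is near the background. In the P4_NCD38 library of day 4, SAA1, S100A9 and CASP1 were listed at 0 and IL13RA2 was within counting error of DMSO.

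Each inhibitor was also tested against DMSO on the 2 days together, in a fit that also held a term for the day and was added after the data were seen (limma, 10865 genes). At an adjusted p below 0.05, 1 gene was higher and 3 lower with NCD38 (0.0092% and 0.0276%), 1 and 1 with P4_NCD38 (0.0092% each), and 0 and 2 with PIPP_NCD38 (0.0% and 0.0184%), beside 145, 32 and 62 genes at an unadjusted p below 0.05. NFKBIA and BIRC3 were not among them with any inhibitor. With P4_NCD38 the log2 difference was 0.05 (SE 0.22) for NFKBIA and 0.27 (SE 0.23) for BIRC3. IL13RA2, whose P4_NCD38 library was used to pick it, was not tested there, and it had -0.12 (SE 0.30) with NCD38 and 0.33 (SE 0.30) with PIPP_NCD38, neither past the threshold.

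The compounds were compared with each other at the same dose label and day, in 4 pairs of libraries with no test. P4_NCD38 differs from its parent NCD38 by the polyamide and from PIPP_NCD38 by imidazole in place of 1 pyrrole. On day 30, 2 of the 10 genes were 2-fold higher with P4_NCD38 than with NCD38, S100A9 and CASP1, beside 0.606% of all genes. Against PIPP_NCD38, 3 were higher, SAA1, S100A9 and CASP1, beside 0.3%, and 0 of the 10 genes were lower, beside 0.679% of all genes against NCD38 and 0.573% against PIPP_NCD38. These genes were picked on the same P4_NCD38 library, so the counts describe the choice.

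IL13RA2, picked on the P4_NCD38 library of day 30, was 1.53 times higher there than with NCD38 and 1.38 times higher than with PIPP_NCD38. The log2 differences were 0.60 and 0.46 with half-widths of 0.14 and 0.13, and they describe the choice. NFKBIA, which was not picked, had log2 differences of -0.17 and -0.03 with half-widths of 0.17 and 0.16, close to or within counting error. BIRC3 was higher than with PIPP_NCD38 by 0.32, or 0.48 without the added 1 with a half-width of 0.26, and differed from NCD38 by 0.28 on that scale, close to its half-width of 0.27. IL8 was 4.71 times higher than with NCD38, a log2 difference of 2.24 without the added 1 and a half-width of 1.31, from 21 and 6 fragments. Its difference from PIPP_NCD38 of 1.02 had a half-width of 0.90. With the GC trend subtracted, differences from PIPP_NCD38 on the FPKM plus 1 scale fell from 0.46 to 0.24 for IL13RA2, 0.32 to 0.11 for BIRC3 and 0.43 to 0.22 for IL8. Those from NCD38 became 0.53, 0.13 and 0.67. TNFAIP3 differed from either compound by less than counting error, with half-widths of 0.85 and 0.78 that leave a difference of 1.5-fold undetectable. On day 4, 0 of the 10 genes were 2-fold apart between P4_NCD38 and either compound, beside 10.4% of all genes that were higher and 0.412% that were lower with P4_NCD38 than with NCD38, and 0.534% higher and 0.612% lower than with PIPP_NCD38.

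Other genes of each pathway were taken from 8 lists without the 10 genes. With P4_NCD38, 0 of 19 genes for NF-κB subunits and feedback and 0 of 16 NF-κB target genes were 2-fold from DMSO on either day. Of all 17976 genes, 0.395% were higher and 0.306% lower on day 30, and 0.718% and 0.534% on day 4. With shares of this size, these counts are near the background. The median log2 ratios of these lists on day 30 were -0.08 and 0.00, beside 0.02 over all genes above 0. RELA, the main activating subunit, was 30.0 FPKM with DMSO and 28.3 with P4_NCD38 on day 30. BCL2A1, a survival factor among the targets, was 133 and 171. In the same lists 13 of 19 and 10 of 16 genes had their highest day-30 level with NCD38, and 3 and 1 with P4_NCD38. Over all genes above 0 on day 30 the shares were 32.4% and 32.5%.

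The acute-phase and antimicrobial list went the other way in rank, at very low levels. Of its 20 genes, 9 were above 0 on day 30, and 7 of these had their highest level with P4_NCD38, beside 32.5% of all 17199 genes. That library was the shallowest, and 1 fragment there gives 1.84 times the FPKM that it gives with PIPP_NCD38. ORM1 and S100A8 rest on 1 fragment there, and SAA2 had 1 fragment with NCD38 as well. The part of depth in the rank of such genes and in the summed level was not tested. The summed level of the list was 0.308 FPKM with DMSO, 0.583 with NCD38, 3.47 with P4_NCD38 and 0.475 with PIPP_NCD38. No gene of it reached 2-fold on the FPKM plus 1 scale, beside 0.395% of all 17976 genes that were 2-fold higher. The list was chosen with earlier results of these data known. C3, the central complement component, had 3.9, 9.7, 48.3 (35.6 to 63.9) and 8.7 fragments in that order of treatments. CFB, complement factor B, had 1, 3, 13 (6.92 to 22.2) and 2. PI3, the elastase inhibitor elafin, had 2, 0, 12 (6.20 to 20.96) and 2 on day 30, and 10 with PIPP_NCD38 on day 4.

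With depth taken into account, the lower limits of C3 and CFB with P4_NCD38, 0.558 and 0.211 FPKM, lay above the upper limits of the other 3 libraries, of which the highest were 0.209 and 0.199 with NCD38. This was also the library on which SAA1 and S100A9 were picked, while SLPI, ORM1, S100A8 and SAA2 had 1 to 3 fragments there. Of the chemokine list, CCL5 had 6 fragments (2.20 to 13.1) with P4_NCD38 and was listed at 0 in the other 7 libraries. CXCL2, the close paralog of CXCL1, was not highest there, with 1.54, 2.22, 2.03 and 2.71 FPKM on day 30. KRT19, a keratin of simple epithelia, had 0, 1, 8 and 3 fragments in these day-30 libraries, the interval of the 8 being 3.45 to 15.8. Of the 7 epithelial markers, 4 were above and 2 below DMSO with P4_NCD38 on day 30. The 2 below were KRT18 and CDX2, with log2 ratios of -0.04 and -0.15. Above it were KRT19, KRT8 at 0.28, EPCAM at 6.30 beside 3.94 FPKM, and CDH1 at 0.0642 beside 0. The median log2 ratio of the list was 0.19, beside 0.02 over all 17976 genes. Of the markers, 0 were 2-fold apart, beside 0.395% of all genes higher and 0.306% lower. The part of these markers in the acute-phase values was not tested.

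**Figure D2:**
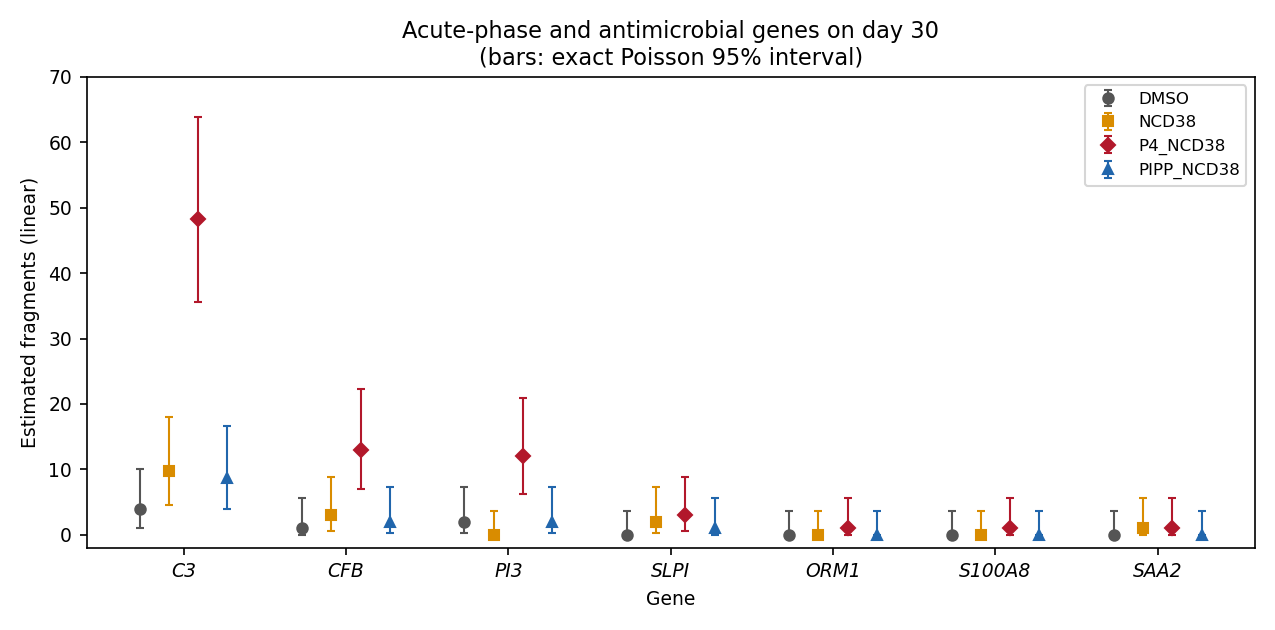
Estimated fragments of 7 acute-phase and antimicrobial genes on day 30, on a linear axis, with 1 point per library and exact Poisson 95% intervals as bars. C3 with P4_NCD38 (48.3 fragments) lies above the bars of the other 3 libraries, CFB and PI3 follow at 13 and 12, and the remaining 4 genes have at most 3 fragments.

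Day 30 and day 4 were the comparison with the most libraries, 4 against 4, tested with limma on log2 of FPKM plus 1 with the treatment as a block. The treatments stand in for replicates, and the day cannot be told apart from any difference in how the libraries of each day were made. Of 10865 genes with a mean FPKM of at least 1, 30.2% were higher and 31.7% lower on day 30 at an adjusted p below 0.05, so a call is common. Only 3 of the 10 genes reached that mean FPKM, IL13RA2, NFKBIA and BIRC3.

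IL13RA2 was higher on day 30 in all 4 treatments, without overlap: 2.69 to 5.22 FPKM on day 4 and 25.95 to 53.7 on day 30. The log2 difference was 2.83 (SE 0.21, limma adjusted p = 0.00053), and without the P4_NCD38 pair, on which it was picked, 2.73 (SE 0.28, adjusted p = 0.0079). BIRC3 did not overlap either, with 0.0430 to 0.359 on day 4 and 1.54 to 2.46 on day 30. Since it entered the test only through its day-30 level, its difference of 1.36 on the log2 scale is given with no p. NFKBIA was lower on day 30 with DMSO, P4_NCD38 and PIPP_NCD38 and higher with NCD38, and its difference of -0.26 (SE 0.16) did not pass (adjusted p = 0.19). Without the NCD38 pair it was -0.42 (adjusted p = 0.012).

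Between day 30 and day 4 with DMSO, log2 ratios also followed GC content (Spearman correlation -0.67). With this trend subtracted, IL13RA2 stayed higher on day 30 at 1.24 (limma adjusted p = 0.0018), whereas the BIRC3 difference turned to -0.31 and NFKBIA to 0.39 (adjusted p = 0.026). The direction for BIRC3 and NFKBIA therefore depended on this correction. Without the filter on low levels, IL8 was higher on day 30 by 0.60 (adjusted p = 0.023), beside 23.7% of 17976 genes, with 0.220 to 1.03 FPKM on day 30 and 0 to 0.0874 on day 4. IL8 is the GC-poorest of the 10 at 32.9%. Of 17 NF-κB subunit and feedback genes tested, 4 were higher and 10 lower on day 30. Of 13 targets, 2 were higher and 4 lower, beside 30.2% and 31.7% of all 10865 genes. These counts and the values that follow are not corrected for the GC trend, whose part in them was not tested. RELA and NFKB1 were lower on day 30 by 1.28 and 1.49 (adjusted p = 0.00054 and 0.011), NFKBIZ and CHUK were higher by 2.77 and 1.36 (adjusted p = 0.00052 and 0.014), and BCL2A1 was higher by 3.61 (adjusted p = 0.0018).

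**Figure D3:**
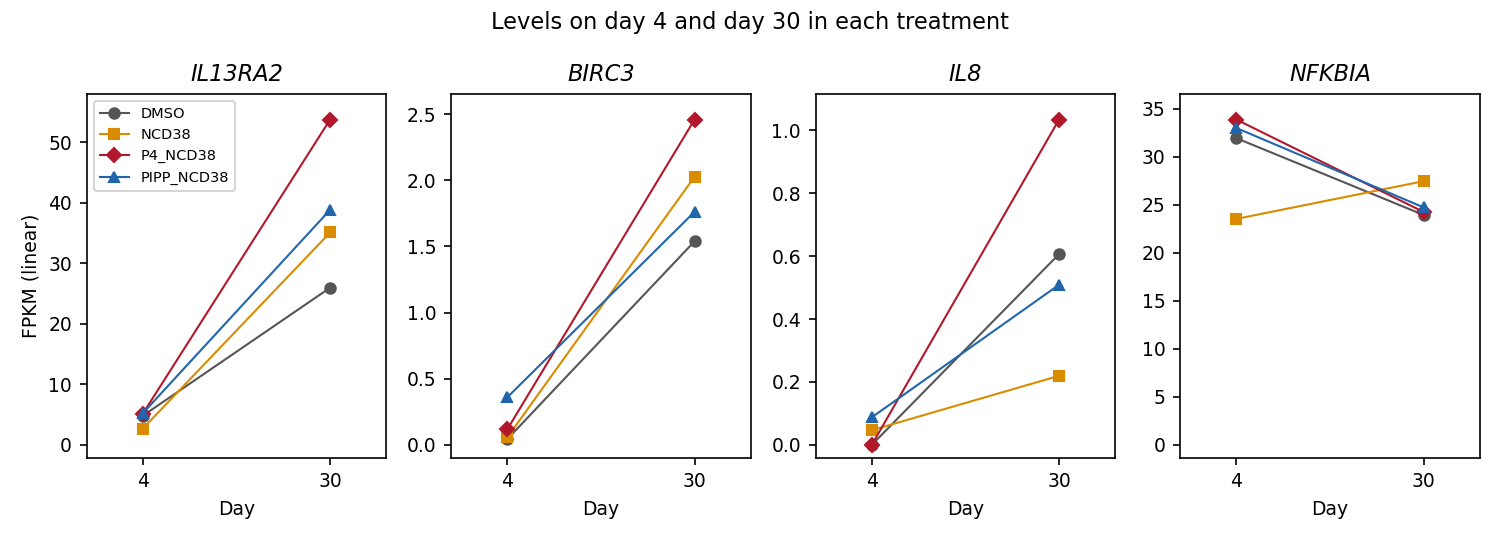
FPKM of 4 genes on day 4 and day 30, each on its own linear axis, with 1 line per treatment joining its 2 libraries. IL13RA2, BIRC3 and IL8 were higher on day 30 in all 4 treatments, and NFKBIA was lower on day 30 in 3 and higher with NCD38, at 23.5 and 27.4.

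Across the 8 libraries the genes with the most similar log2 levels to a given gene, among those averaging 1 FPKM or more, were found by Pearson correlation, as a description over libraries that share day and depth. For IL13RA2 they were ITGB3BP, PHF11 and ORC3 (r of 0.99 or more for each), and for BIRC3 they were USP15, ORC4 and HNF4G (r = 0.999, 0.998 and 0.997). USP15 followed BIRC3 in all conditions, from 0.264 FPKM with DMSO on day 4 to 5.96 with P4_NCD38 on day 30. NFKBIA was most like WDR45L (r = 0.988), SLC31A1 and SLC7A1, and IL8 most like CETN2 (r = 0.974), IQCK and AGPHD1. For S100A9 the closest were 3 short microRNA entries read only with P4_NCD38 on day 30, MIR135A1, MIR3936 and MIR614 (r = 0.962). TNFAIP3 was closest to SNORA64 (r = 0.941), which was also at 0 with NCD38 on day 4, then RAET1K and VEGFA.

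Libraries were also compared for genes read in 1 of them only, by a rule set after the values were seen: at least 0.5 FPKM in 1 day-30 library and below 0.1 in the other 3. There were 15 such genes with P4_NCD38, 13 with DMSO, 21 with NCD38 and 34 with PIPP_NCD38, so P4_NCD38 did not stand apart in their number. Among these, transcripts of 500 nt or longer numbered 5 with P4_NCD38 and 1 in each other library. The 5 were CASP1, SAA1, SPANXD, PLAC8 and ATP6V1G2-DDX39B, of which CASP1 and SAA1 had been picked on this library. SAA1, at 518 nt, lies just above the length cut. The contrast of 5 and 1 is thus partly fixed by the choice, and nothing was read from it.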

How the data were processed

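RNA of the 8 libraries was prepared with a stranded mRNA kit. Per the methods, the authors aligned reads with TopHat and deposited FPKM estimated by Cufflinks; the submitters' processing notes list HISAT2 2.2.1.0, BWA 0.5.9, bedtools 2.20.1 and hg19 without roles. An exact 0 can be a failed estimate. The other samples of the series, 38 in all, were not analysed here. Of 25594 table entries, 90 with a repeated name were left out. Gene positions and transcript lengths come from GENCODE 44 on GRCh37, matched for 91.1% of expressed genes. Depth was estimated from low FPKM, where all values of 59.9% of 3132 genes of at most 30 fragments came out whole within 0.1. The step from FPKM to fragment numbers was run on simulated data with the depth and transcript lengths given. That run does not test the depth estimate or the lengths. Log2 ratios used a pseudocount of 1, and the day, and each inhibitor over both days, were tested with limma 3.58.1 (R 4.3.3) and Benjamini-Hochberg adjustment. In simulated data for the day comparison, with 200 of 10865 genes changed, 45% of changes of log2 1 and 92% of log2 2 were called. In the real comparison 61.9% of genes were called, so these rates do not describe it. Named genes were the 10 genes, the 3 highest of each list or those 2-fold apart with P4_NCD38, the 3 most similar genes, and KDM1A. The lists hold further names chosen after their values were seen. The 10 genes and the lists were chosen with earlier results of these data known. Python 3.11.15 was used.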

Additional observations from a re-analysis of the deposited data

Results flagged for a closer look

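The ratio to DMSO of the same day had opposite signs on day 30 and day 4 with NCD38 for a pair of genes, each outside its counting half-width, and the difference between the days was not tested. IL13RA2 had log2 ratios of 0.42 on day 30 (half-width 0.15) and -0.65 on day 4 (0.49). NFKBIA had log2 ratios of 0.19 on day 30 (0.15) and -0.43 on day 4 (0.16). With the median of expressed genes scaled to 0, IL13RA2 on day 4 was -0.45 and NFKBIA on day 30 was 0.13, the latter within its half-width. With the GC trend subtracted, IL13RA2 on day 4 was -0.32. The half-widths are those of ratios without the added 1, and this ratio was -0.84 for IL13RA2 on day 4 before any correction. Its corrected values, on the FPKM plus 1 scale, can therefore not be set against the half-width. Each value rests on 1 library and 1 DMSO library, and the NCD38 library of day 4 is the one whose ratios rose with GC content across genes.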

How the results depend on the processing

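With 1 library per condition the limits are counting error, pseudocount, scaling and the DMSO library used. With P4_NCD38 on day 30 the number of the 10 genes at least 2-fold higher was 4. It was 1 with the median scaled to 0 and 2 with the GC trend subtracted, and it moved little with a pseudocount of 0.1 (5) or the DMSO library of day 4 (6). For NCD38 on day 30, 0 became 2 higher and 1 lower with a pseudocount of 0.1, and 2 higher with the other DMSO library. That library also gave 2 higher for PIPP_NCD38 on day 30, and on day 4, 2 lower with NCD38, 2 lower with P4_NCD38 and 1 lower with PIPP_NCD38. A pseudocount of 0.1 gave 1 lower with NCD38 and 3 higher with PIPP_NCD38 on day 4. Against NCD38 on day 30, the 2 genes higher with P4_NCD38 became 5 with a pseudocount of 0.1 and 1 with the GC trend subtracted. Against PIPP_NCD38 the 3 became 1 under scaling and 1 under GC subtraction. On day 4 a pseudocount of 0.1 turned 0 into 1 higher than NCD38 and 3 lower than PIPP_NCD38. Over all 8 pathway lists, 0 genes 2-fold from DMSO with P4_NCD38 became, with a pseudocount of 0.1, 10 higher on day 30 and 8 higher and 1 lower on day 4. With the other DMSO library they became 11 higher and 18 lower on day 30, and 18 higher and 8 lower on day 4. A smaller pseudocount raises ratios of low genes by construction, and the other DMSO library also changes the day.

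In the day comparison (limma), leaving out 1 treatment gave 2189 to 3581 genes higher and 2378 to 3963 lower on day 30, beside 3277 and 3445. BIRC3 reversed to -0.31 with the GC trend subtracted. NFKBIA reversed to 0.39 with it and to 0.0033 under quantile normalization. Without the treatment as a replicate block, 3498 genes were higher and 3779 lower, and the adjusted p was 2.5e-05 for IL13RA2 and 0.11 for NFKBIA, so the block changed no call for these genes. Over both days, with the GC trend subtracted, BIRC3 turned to -0.0085 with P4_NCD38 and -0.18 with PIPP_NCD38 and IL13RA2 to -0.15 with PIPP_NCD38, none past the threshold in either setting. The cause of the reversals was not tested. Among expressed genes with P4_NCD38 on day 30, 55 were 2-fold higher, 89 with a pseudocount of 0.1 and 9 with at least 1 FPKM in all 8 libraries.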
